A study of Mus musculus with 17 samples.

Results

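Tra2a, Tra2b, Srsf2, Srsf3, Srsf5, Srsf6, Srsf7, Srsf11, Clk1 and Clk4 are splicing regulators of the Tra2 and SR (serine and arginine rich) family, together with a pair of the kinases that phosphorylate them. These 10 of the 55487 genes in the count table were followed across all 17 libraries, and all 10 passed the filter on low counts. The members were chosen by measured values of these libraries: Tra2a for its level after 1 day of treatment, and the set for how T1 replicate 1 compared with the other T1 libraries. Values of T1 against the controls are therefore a description and carry no test.

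The libraries were made from the choroid plexus of the lateral ventricles, dissected whole from C57BL/6 mice. CTRL (n = 5) was the control group, and the other groups received dextran sodium sulfate (DSS), a polymer used to injure the colon lining in mice. T1 (n = 4) had 1 day of DSS, T3 (n = 4) had 3 days, and T5 (n = 4) had 3 days of DSS followed by 2 days of water. The labels give no age or sex and do not say whether each sample is a separate animal. The p-values then measure only the spread between these samples, which may be technical.

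SR proteins bind exonic sequences of precursor messenger RNA through an RNA recognition motif and recruit the spliceosome through their arginine and serine repeats. Tra2 proteins are related, bind purine-rich exonic enhancers and act as sequence-specific activators of exon inclusion. CLK kinases phosphorylate the repeats and so change where SR proteins sit in the nucleus and how they bind. Many of these genes also control their own output by splicing in exons that expose the transcript to decay or by retaining introns.

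On GRCm38 with GENCODE M21 names, Tra2a (ENSMUSG00000029817) lies on chromosome 6 from 49243924 to 49264033 on the minus strand, and Srsf5 (ENSMUSG00000021134) on chromosome 12 from 80945504 to 80950507 on the plus strand. Clk1 (ENSMUSG00000026034) lies on chromosome 1 from 58410189 to 58424066 on the minus strand, and Clk4 (ENSMUSG00000020385) on chromosome 11 from 51261730 to 51281766 on the plus strand. Srsf2 (ENSMUSG00000034120), on chromosome 11 from 116849901 to 116853094 on the minus strand, shares exon bases with Mettl23 and Mfsd11. The strand setting of the counting is not given in the sources used here, so reads of Srsf2 and of these neighbours could not be separated with certainty. Clk4 shares exon bases with the small RNA gene Gm25082. The annotation gives each member at least 1 transcript marked for nonsense-mediated decay and at least 1 with a retained intron. Clk1 has 13 transcripts, of which 1 is protein coding, 2 are marked for decay and 7 retain an intron. Srsf11 has 19 transcripts, of which 11 retain an intron. Counts per gene do not tell these transcripts apart, so every level below is a sum over coding and non-coding forms.

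The promoters of Tra2a, Srsf2, Srsf5 and Clk4 are shown because the levels of these genes carry the comparisons that follow. Each is the 250 bases before the RefSeq start on GRCm38.p6, read 5′ to 3′ on the gene's strand: Tra2a at chr6:49264053-49264302 (minus), Srsf2 at chr11:116853095-116853344 (minus), Srsf5 at chr12:80945249-80945498 (plus) and Clk4 at chr11:51262864-51263113 (plus). Capitals mark matches on either strand to any of the motifs searched. These were the cAMP response element TGACGTCA, the E-box with the letters CACGTG, the promoter element spelled CCAAT, the core promoter element spelled TATAAA, a pair of heat shock units spelled GAANNTTC, and the element bound by Sp family factors spelled GGGCGG. Adjoining or overlapping matches run together in capitals.
Tra2a: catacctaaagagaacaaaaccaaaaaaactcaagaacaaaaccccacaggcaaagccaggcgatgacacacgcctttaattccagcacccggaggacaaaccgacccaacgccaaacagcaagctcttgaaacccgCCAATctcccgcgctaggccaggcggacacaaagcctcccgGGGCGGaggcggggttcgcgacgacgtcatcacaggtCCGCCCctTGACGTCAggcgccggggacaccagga
Srsf2: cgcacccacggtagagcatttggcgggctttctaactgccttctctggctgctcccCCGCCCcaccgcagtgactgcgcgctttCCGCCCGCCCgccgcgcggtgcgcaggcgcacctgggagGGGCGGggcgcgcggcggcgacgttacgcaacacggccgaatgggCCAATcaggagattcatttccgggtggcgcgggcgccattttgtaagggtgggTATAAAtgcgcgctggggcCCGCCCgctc
Srsf5: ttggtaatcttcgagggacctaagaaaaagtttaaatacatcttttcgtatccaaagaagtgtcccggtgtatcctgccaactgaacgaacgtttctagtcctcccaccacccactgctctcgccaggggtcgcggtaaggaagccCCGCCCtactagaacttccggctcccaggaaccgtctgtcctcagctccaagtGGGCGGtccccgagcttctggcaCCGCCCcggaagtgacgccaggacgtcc
Clk4: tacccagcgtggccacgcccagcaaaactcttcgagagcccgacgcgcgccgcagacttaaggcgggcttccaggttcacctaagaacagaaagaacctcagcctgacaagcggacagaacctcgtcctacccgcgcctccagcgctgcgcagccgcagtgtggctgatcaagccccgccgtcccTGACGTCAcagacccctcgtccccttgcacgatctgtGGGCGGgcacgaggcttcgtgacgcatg
TGACGTCA was found in the promoters of Tra2a and Clk4, beginning 27 and 65 bases before the start, and in 1.55% of the 32851 promoters of the same length. CCAAT was found in Srsf2, Srsf3 and Tra2a (33.8% of all promoters), and TATAAA in Srsf2 and Srsf3 (12.4%). GAANNTTC was found in Tra2b (6.69% of all promoters), while CACGTG (6.02%) was in none of the members' windows matched. GGGCGG was in each matched member's window but that of Srsf3, and in 32.7% of all promoters. RefSeq windows were matched for 9 of the 10 members, all but Clk1, and Srsf11 had a pair of starts. A match is a description of letters and not a binding site.

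Per length, Srsf5 was the most abundant member, with a median of 58.0 RPKM (CPM per kilobase of annotated exon) over the 17 libraries. Srsf2 followed at 44.9, Srsf7 at 32.6, Srsf6 at 22.1, Srsf3 at 16.9 and Srsf11 at 11.2 RPKM. Tra2b stood at 7.04 RPKM, Clk1 and Clk4 both at 6.27, and Tra2a was lowest at 3.81. Between neighbours in this order the ranges over the libraries overlapped, except that Srsf7 (27.4 to 38.6 RPKM) lay wholly above Srsf6 (19.5 to 25.8 RPKM). The members also differed in how far they varied. Srsf5 spanned a 4.59-fold range of TMM-normalised CPM (CPM, counts adjusted for depth and library composition), Clk1 2.81-fold and Clk4 2.65-fold. Srsf6, which can activate or repress exons in many tissues, spanned 1.32-fold, the narrowest range over the 17 libraries. Without the 4 libraries of sample number 28 and above, described next, the ranges were 2.66-fold for Srsf5, 2.2-fold for Clk1 and 2.11-fold for Clk4, and Srsf3 had the narrowest at 1.29-fold.

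Library totals ran from 8875921 to 26839417 counts, and member counts from 299 (Tra2a) to 11257 (Srsf5). Markers of choroid plexus epithelium summed to 99554 to 225526 CPM per library, and Ttr alone, the transthyretin gene of this epithelium, reached 54516 to 148902 CPM. T1 replicates 2, 3 and 4 and T3 replicate 4 carry sample numbers of 28 and above, and the other 13 libraries 26 and below; the labels do not say what the numbers stand for. These 4 libraries had 1.8564% to 2.0383% of counts in mitochondrial genes, against 2.4958% to 3.7536% in the other 13. They had reads in 26356 to 30293 genes, against 21315 to 24824. Malat1, a long RNA kept in the nucleus, stood at 965 to 1415 CPM in them and at 238 to 645 CPM elsewhere.

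Tra2a, an activator of exon inclusion, stood higher in every T1 library than in any control and overlapped the controls at T3 and T5. It measured 23.3, 22.8, 25.4, 29.2 and 23.7 CPM in CTRL replicates 1 to 5 and 44.3, 34.9, 39.0 and 32.8 CPM in T1 replicates 1 to 4. It measured 28.8, 24, 24.1 and 26.8 CPM in T3 and 22.1, 26.5, 25.4 and 28.6 CPM in T5. The 4 T1 libraries were the 4 highest of the 17. The group means were 24.9 ± 2.59 CPM in CTRL (SD, n = 5) and 37.8 ± 5.06 CPM in T1 (SD, n = 4), a log2 difference of 0.60 ± 0.11 (SE). T1 replicate 1, whose sample number is low, had the highest level, 1.25 times the mean of the other 3 T1 libraries by TMM and 1.01 times by library totals. Without the 4 libraries of sample number 28 and above, which leaves 1 T1 library, the log2 difference was 0.82; without T1 replicate 1 it was 0.51. Markers of neurons and endothelium had positive log2 differences in T1. Of 10 ependymal markers, 5 were positive and 5 negative. After adjustment edgeR called 0 of these markers. All 12 neuron markers were positive, 3 of them at an unadjusted p under 0.05, with overlapping sums of 180.4 to 516 CPM in T1 and 84.2 to 212 CPM in CTRL. All 12 endothelial markers were positive, 9 of them at an unadjusted p under 0.05 and 6 called by DESeq2, which called 0 neuron markers. The endothelial sums overlapped, at 232 to 562 CPM in T1 and 122 to 275 CPM in CTRL. Of all genes, 9.43% were higher at an unadjusted edgeR p under 0.05, and DESeq2 called 4.17%. limma called 6 neuron, 9 endothelial and 3 ependymal markers, where it called 24.2% of all genes. The median log2 difference was 1.8 for the neuron markers and 1.11 for the endothelial markers. Without the 4 libraries of sample number 28 and above, these medians were 0.44 and 0.24. The brain markers are the neuron, astrocyte and oligodendrocyte lists together, and the medians of the latter lists were 0.46 and 0.43 in T1. With the mean level of the brain markers as a covariate, the log2 difference of Tra2a was 0.62. The part of the neuron markers alone and that of the endothelial markers were not tested.

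**Figure D1:**
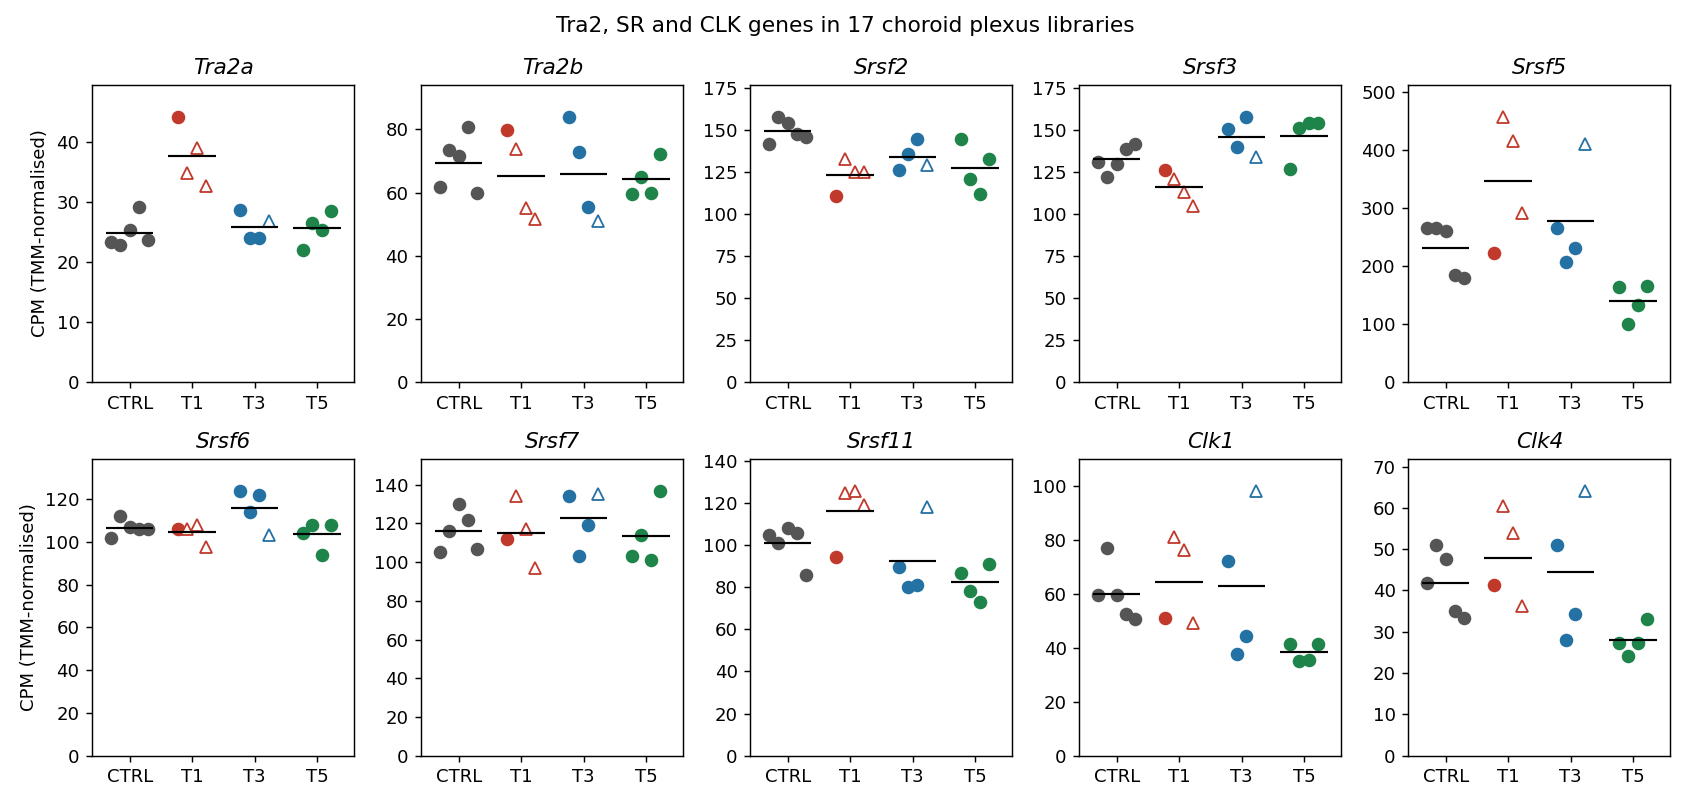
Level of each of the 10 genes in TMM-normalised CPM (vertical axes) in every library by group (horizontal axes); points are libraries, open triangles those of sample number 28 and above, and bars group means. Tra2a in T1 (32.8 to 44.3 CPM) lies above all controls (22.8 to 29.2 CPM), and Srsf5, Clk1 and Clk4 are lowest in T5.

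Tra2b, the close relative of Tra2a, did not show this. Its T1 libraries measured 79.7, 73.8, 55.2 and 51.7 CPM and its controls 61.9, 73.5, 71.6, 80.6 and 59.7 CPM, so the groups overlapped. Its log2 difference was -0.09 ± 0.16 (SE) in T1 against CTRL, and 0.18 without sample numbers of 28 and above. Per length, the ratio of Tra2a to Tra2b was 0.479 ± 0.0424 in CTRL (SD, n = 5) and 0.787 ± 0.133 in T1 (SD, n = 4). The ratio ran from 0.413 to 0.527 in the controls and from 0.629 to 0.938 in T1, without overlap. In T3 it was 0.543 ± 0.121 and in T5 0.532 ± 0.0284 (SD, n = 4 each), both overlapping the controls. T3 replicate 4, of high sample number, was at 0.699, inside the T1 range, and T3 replicates 1 to 3 were at 0.439 to 0.578. T1 replicate 1, of low sample number, was at 0.739.

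Srsf2, an SR protein that also acts in transcription elongation, stood lower in every T1 library than in any control. It measured 142, 158, 154, 148 and 146 CPM in CTRL and 111, 133, 125 and 125 CPM in T1, a log2 difference of -0.28 ± 0.09 (SE). The difference was -0.45 without sample numbers of 28 and above, which leaves T1 replicate 1 alone, and -0.14 with library totals. T3 measured 126, 136, 145 and 129 CPM and T5 145, 121, 112 and 133 CPM, and both groups overlapped the controls. With library totals in place of TMM, which moved the median log2 difference of all genes in T1 from 0.08242 to 0.2103, Srsf2 overlapped between T1 and CTRL and Tra2a still did not. Tra2a higher and Srsf2 lower were the 2 of 10 members without overlap in T1, where 2.90% of all 16851 genes tested were higher and 3.86% lower without overlap. At an unadjusted edgeR p under 0.05, 9.43% of all genes were higher in T1 and 11.7% lower, and 0% passed after adjustment. Since T1 chose the members, nothing is read from their count there.

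Srsf5, an SR protein, varied most. It measured 266, 266, 260.5, 185 and 180.1 CPM in CTRL and 222, 458, 416 and 291 CPM in T1. It measured 265, 207, 231 and 410.3 CPM in T3 and 164, 99.9, 133 and 165 CPM in T5. The high values were those of T1 replicates 2 to 4 and T3 replicate 4, which lay above all 13 other libraries (291 to 458 against 99.9 to 266 CPM). T1 replicate 1 was at 0.571 times the mean of the other 3 T1 libraries and inside the control range. The log2 difference of T1 from CTRL was 0.58 ± 0.24 (SE), and it was -0.06 with a term for sample numbers of 28 and above and -0.08 without those libraries.

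Srsf11, an SR-like protein with an arginine and serine domain, showed the same split. Its levels in CTRL were 105, 101, 108, 106 and 85.8 CPM, in T1 94.4, 125, 126 and 119 CPM, in T3 89.8, 80.2, 81.2 and 118 CPM, and in T5 86.9, 78.3, 73.1 and 91.3 CPM. The 4 libraries of high sample number (118 to 126 CPM) again lay above the other 13 (73.1 to 108 CPM). Srsf5 and Srsf11 were the only members with that pattern, which 4.31% of all genes tested shared, while 10.3% lay below in all 4. The T1 log2 difference of Srsf11, 0.20 ± 0.13 (SE), became -0.12 without these libraries and -0.14 with the term for their sample numbers. The part of Malat1 and mitochondrial share in these levels was not tested. Sample number was examined only in these fits, and the labels do not say what it stands for.

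**Figure D2:**
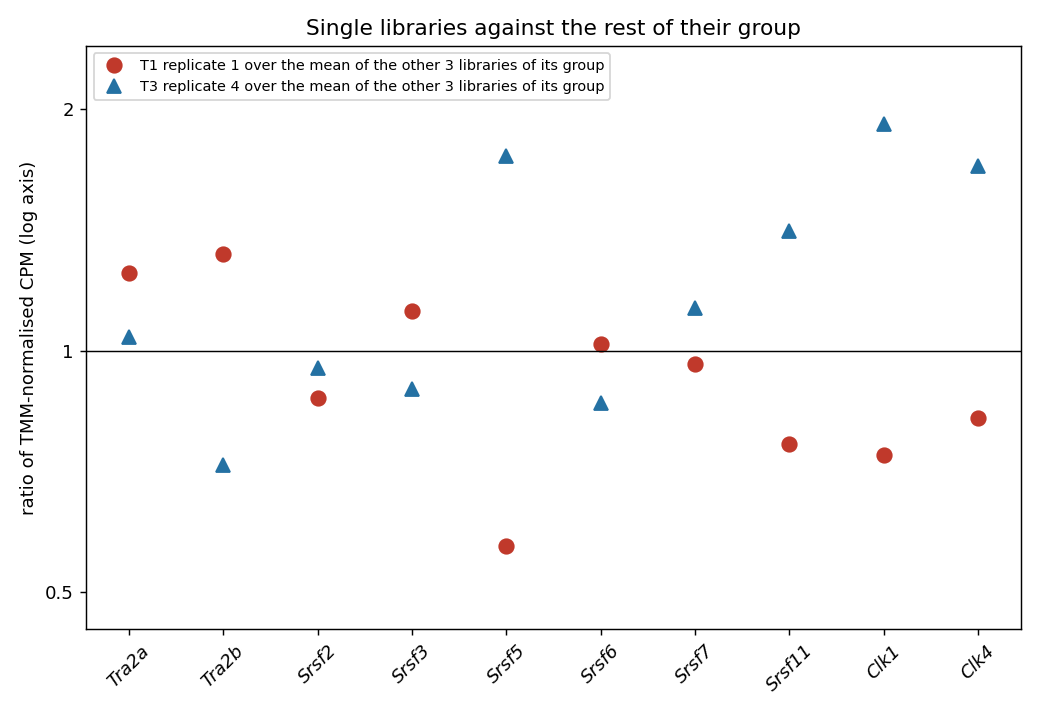
T1 replicate 1 and T3 replicate 4, each relative to the mean of the other 3 libraries of its group, for the 10 genes on a log axis. Srsf5 is at 0.571 in T1 replicate 1 and 1.75 in T3 replicate 4, and Tra2a at 1.25 and 1.04.

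T1 replicate 1 was set beside the other T1 libraries for all members, which is the comparison that chose the set. By TMM it lay above the other 3 T1 libraries for Tra2a, Tra2b and Srsf3, below them for Srsf2, Srsf5 and Srsf11, and inside their range for Srsf6, Srsf7, Clk1 and Clk4. T3 replicate 4 lay at 1.75 times the mean of the other T3 libraries for Srsf5, 1.41 times for Srsf11, 1.92 times for Clk1 and 1.70 times for Clk4. By library totals T1 replicate 1 fell below the other T1 libraries for Srsf3, Srsf6, Srsf7, Clk1 and Clk4 as well, and inside their range for Tra2a and Tra2b. These are single libraries, and no test was made. The share of all genes outside such a range was not computed, so nothing is read from the number of members outside it.

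Clk1 and Clk4, the kinases of the set, moved together from library to library. Clk1 measured 59.6, 77.2, 59.8, 52.8 and 50.6 CPM in CTRL, 51.0, 81.3, 76.4 and 49.1 in T1, 72.2, 37.7, 44.3 and 98.5 in T3, and 41.5, 35.0, 35.7 and 41.6 in T5. Clk4 measured 41.8, 51.0, 47.6, 35.1 and 33.3 CPM in CTRL, 41.3, 60.4, 53.8 and 36.3 in T1, 51.1, 28, 34.2 and 64.2 in T3, and 27.3, 24.2, 27.2 and 33.1 in T5. The T5 libraries of each gene lay below all of its controls, and T3 replicate 4 was the highest library for both. The ratio of Clk1 to Clk4 in CPM stayed between 1.23 and 1.53 over the 17 libraries, with a median of 1.42.

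**Figure D3:**
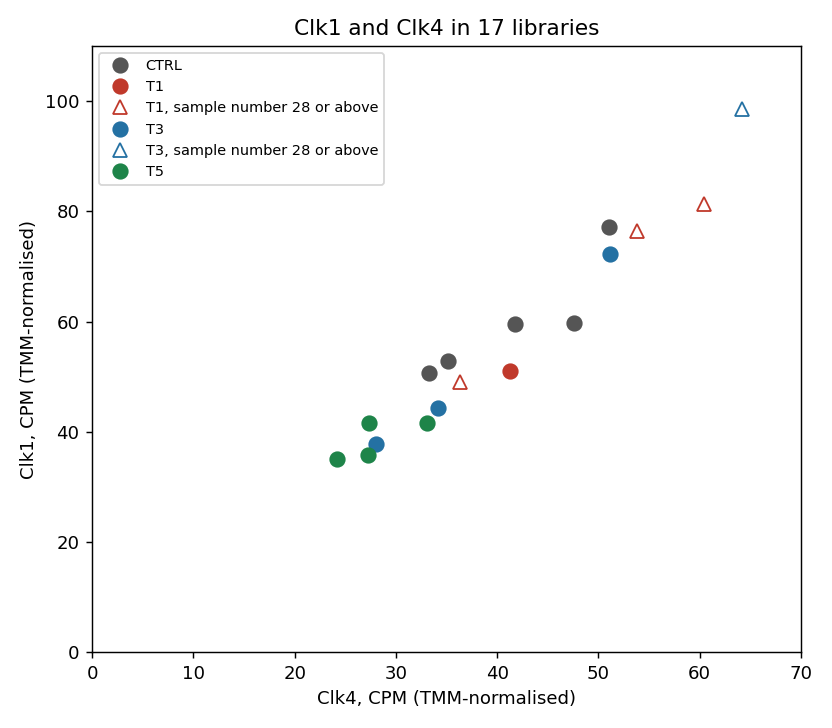
Clk1 against Clk4 in TMM-normalised CPM, 1 point per library, coloured by group, with open triangles for sample numbers of 28 and above. The points follow a ratio of 1.23 to 1.53, and the 4 T5 libraries sit at the low end of both axes.

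The question put to T5 was how the genes stood after DSS was replaced by water. Srsf5, Clk1 and Clk4 were lower in every T5 library than in any control, and no member passed edgeR's adjusted threshold. This comparison shares its controls with the T1 comparison that chose the members. Srsf5 averaged 141 ± 30.9 CPM in T5 (SD, n = 4) and 231 ± 44.9 CPM in CTRL (SD, n = 5), with a log2 difference of -0.72 ± 0.24 (SE, edgeR adjusted p = 0.598). Clk1 averaged 38.4 ± 3.57 against 60.0 ± 10.4 CPM, a log2 difference of -0.64 ± 0.24 (SE, edgeR adjusted p = 0.598). Clk4 averaged 28 ± 3.7 against 41.8 ± 7.68 CPM, a log2 difference of -0.58 ± 0.22 (SE, edgeR adjusted p = 0.601). These 3 of 10 members compare with 1.57% of all genes lower without overlap and 0.985% higher. Srsf11 was at -0.30 ± 0.13 (SE) on the log2 scale (edgeR adjusted p = 0.614) and Srsf2 at -0.23 ± 0.09 (SE, edgeR adjusted p = 0.601), both overlapping the controls. Tra2a was at 0.04 ± 0.12 (SE, edgeR adjusted p = 0.957).

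At an unadjusted edgeR p under 0.05, 5 of 10 members (Srsf2, Srsf5, Srsf11, Clk1, Clk4) were lower in T5 than in CTRL and 0 higher, against 3.94% and 3.89% of all genes tested. After adjustment edgeR called 0 of 16851 genes (0%), of which 1320 had an unadjusted p under 0.05; DESeq2 called 12 genes and limma 0, none of them members. The median log2 difference over the 10 members was -0.17, and over all genes 0.024. Of 12 neuron markers, 12 had a positive log2 difference in T5 against CTRL and 5 an unadjusted p under 0.05, with overlapping sums of 84.2 to 212 CPM in CTRL and 147 to 727 CPM in T5. All 12 oligodendrocyte markers were positive and 0 had an unadjusted p under 0.05, with overlapping sums of 101 to 7306 CPM and 476 to 17120.3 CPM. edgeR, DESeq2 and limma called 0 genes of both lists after adjustment. No marker of either list was at 0 in every library of a group, and the neuron marker Slc17a6 was at 0 in at least 1 control. With the mean level of the brain markers as a covariate, the log2 difference was -0.70 for Srsf5, -0.64 for Clk1 and -0.52 for Clk4. In whole tissue, fewer cells of a type and less RNA per cell cannot be told apart. Sample numbers run with group here, from 1 to 8 in CTRL and 23 to 26 in T5, so number and group cannot be told apart.

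**Figure D4:**
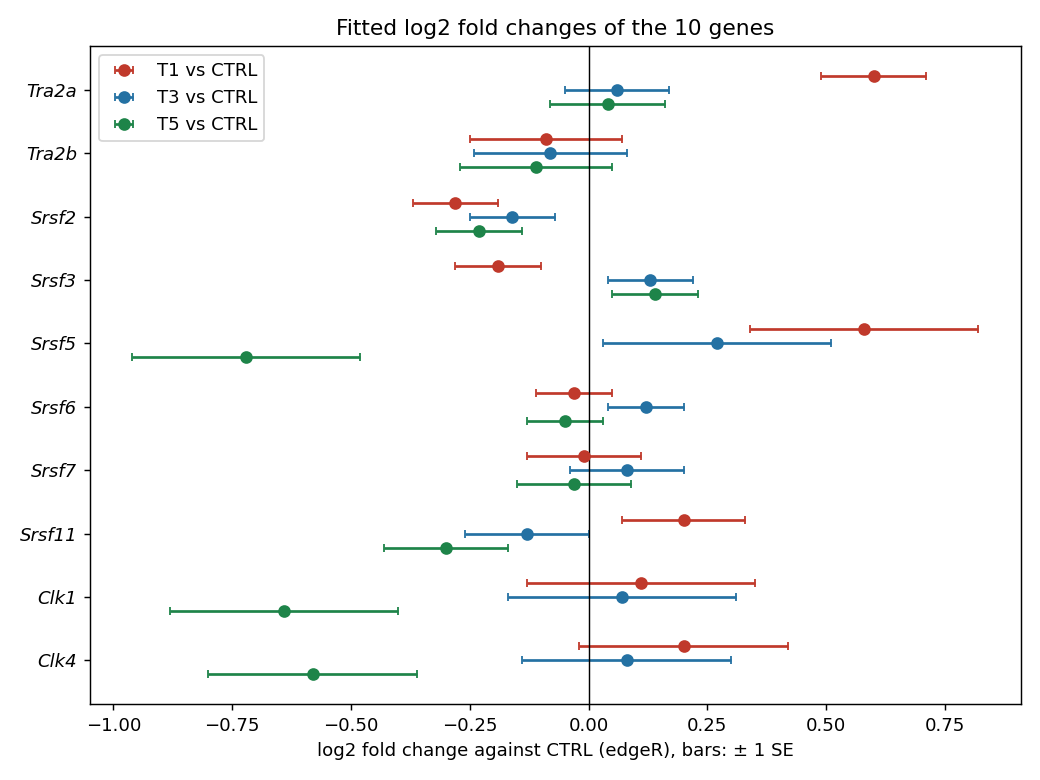
Log2 difference in level of each of the 10 genes in the comparisons against CTRL, with approximate SE as horizontal bars. Srsf5, Clk1 and Clk4 lie at -0.72, -0.64 and -0.58 in T5, and Tra2a at 0.60 in T1 and 0.04 in T5.

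Against T3, a contrast that leaves out the T1 and CTRL group means, Srsf5 was again lower in every T5 library. Its log2 difference was -0.98 ± 0.25 (SE, edgeR adjusted p = 0.267), and without T3 replicate 4 it was -0.74. The filter, TMM and the spread behind this SE and p-value still came from all libraries, T1 and CTRL included. With only the 2 groups fitted, Srsf5 was at -1.01 (edgeR adjusted p = 0.273). Clk1 was at -0.71 ± 0.25 (SE, edgeR adjusted p = 0.379) and Clk4 at -0.66 ± 0.23 (SE, edgeR adjusted p = 0.366), and both overlapped, since T3 replicates 2 and 3 were near the T5 levels. Without T3 replicate 4 the differences of Clk1 and Clk4 were smaller, -0.41 and -0.43. Srsf5 was the 1 member of 10 without overlap, where 4.31% of all genes were lower and 3.04% higher without overlap. At an unadjusted edgeR p under 0.05, 3 members were lower (Srsf5, Clk1, Clk4; 6.15% of all genes). After adjustment edgeR called 0 of 16851 genes (0%) while 1764 had an unadjusted p under 0.05, limma called 0, and DESeq2 called 80, among them Srsf5 (adjusted p = 0.0317). All 12 oligodendrocyte markers had a positive log2 difference in T5 against T3, 8 at an unadjusted edgeR p under 0.05 (4.31% of all genes higher). Of these markers 0 were called by edgeR, DESeq2 or limma, and the sums overlapped, at 476 to 17120.3 and 181 to 1033 CPM. With the brain marker covariate Srsf5 was at -0.97.

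In T3 against CTRL no member was without overlap, where 0.783% of all genes were higher and 0.920% lower without overlap. edgeR called 0 of 10 members and 0 of 16851 genes (0%), with 0 members and 838 genes at an unadjusted p under 0.05 (3.20% of all genes higher and 1.77% lower). DESeq2 called 2 genes and limma 0, none of them members. The log2 differences ran from -0.16 ± 0.09 (SE) for Srsf2 to 0.27 ± 0.24 (SE) for Srsf5. Without T3 replicate 4, Srsf5 was at 0.01, and Clk1 turned from 0.07 to -0.24 and Clk4 from 0.08 to -0.16.

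Srsf3, Srsf6 and Srsf7 overlapped their controls in every group. Srsf3, the smallest SR protein, averaged 133 ± 7.89 CPM in CTRL (SD, n = 5), 116 ± 9.38 in T1, 146 ± 10.6 in T3 and 147 ± 12.9 in T5 (SD, n = 4 each). Srsf6 averaged 107 ± 3.55 CPM in CTRL and 105 ± 4.73, 116 ± 9.37 and 103 ± 6.52 in T1, T3 and T5. Srsf7, which carries a zinc knuckle, averaged 116 ± 10.4 CPM in CTRL and 115 ± 15.3, 123 ± 15.1 and 114 ± 16.5.

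The rest of the splicing machinery was read from lists of its parts, in which edgeR's adjusted test called 0 genes in T5 against CTRL. Of 15 SR-related proteins, nuclear factors with arginine and serine repeats, 14 had a negative log2 difference in T5 against CTRL, with a median of -0.23, and 6 were lower at an unadjusted p under 0.05, as were 3.94% of all genes. Over all genes 54.5% were positive. The most abundant, Rsrp1, averaged 215 ± 62.3 CPM in T5 (SD, n = 4) and 349.5 ± 108 CPM in CTRL (SD, n = 5), a log2 difference of -0.70 ± 0.27 (SE, edgeR adjusted p = 0.601), while Rbm39 was at -0.09 ± 0.09 (SE). Of 8 SR protein kinases, 7 were negative in T5 with a median of -0.17, and 2 were lower at an unadjusted p under 0.05. Prpf4b, a kinase of the spliceosome, was at -0.31 ± 0.13 (SE, edgeR adjusted p = 0.601) and Srpk2 at 0.08 ± 0.10 (SE). Of 38 core spliceosome genes, 13 were negative in T5 with a median of 0.06, and 1 was lower at an unadjusted p under 0.05, near the 3.94% of all genes. Sf3b1, which recognises the branch site, was at -0.16 ± 0.08 (SE) and Sf3b2 at -0.10 ± 0.09 (SE). Of 23 hnRNP proteins, which often oppose SR proteins, 14 were negative with a median of -0.03. Of the 5 other SR proteins, 4 were negative with a median of -0.12; Srsf1, the best known of them, was at -0.15 ± 0.12 (SE) and Srsf9 at 0.00 ± 0.11 (SE). Over all genes the median was 0.024. DESeq2 and limma called 0 genes of these lists in T5 against CTRL.

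In T1 against CTRL, 14 of 15 SR-related genes were positive with a median log2 difference of 0.21, and 32 of 38 core spliceosome genes were negative with a median of -0.24. Over all genes the median was 0.082 and 57.7% were positive. Without the libraries of sample number 28 and above, which leaves T1 replicate 1 alone, 8 of 15 SR-related genes were positive with a median of 0.00, and 29 of 38 core genes negative with a median of -0.12. With a term for those sample numbers, 7 of 15 SR-related genes were positive, with a median of 0.00. Of the 38 core genes, 23 were negative with that term, with a median of -0.03. With library totals 23 of 38 core genes were negative. edgeR's adjusted test called 0 genes of either list. At an unadjusted p under 0.05, 4 of 15 SR-related genes were higher (9.43% of all genes) and 14 of 38 core genes lower (11.7% of all genes). DESeq2 called 1 SR-related gene (Srrm2) and 2 core genes (Lsm8, Snrnp70), where it called 4.17% of all genes. limma called 4 and 16, where it called 24.2% of all genes. The mean log2 CPM of the SR-related list was 6.32 in T1 replicate 1, inside the range of the controls (6.16 to 6.53), while T1 replicates 2 to 4 had 6.59 to 6.64. T3 replicate 4 was at 6.5, the other T3 libraries at 6.07 to 6.27, and T5 at 5.94 to 6.13, below all controls. The core list was at 5.28 in T1 replicate 1, 5.01 to 5.18 in T1 replicates 2 to 4 and 5.04 in T3 replicate 4, against 5.31 to 5.5 in CTRL.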

How the data were processed

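The deposited file holds raw read counts per Ensembl gene for 17 libraries, made by the authors from total RNA with the SMART-Seq v4 kit, per the labels' protocols. Per the submitters' processing notes, the tools included featureCounts 1.6.4, STAR 2.6.1b and Trimmomatic 0.39, on GRCm38. Their settings, the strand and the annotation release were not given in the sources used here. PCR copies were counted as reads. Of 55487 gene identifiers, 55394 matched GENCODE M21 and 93 did not.

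Groups came from the time point label. Genes passing filterByExpr (16851) were fitted in edgeR 4.0.16 (R 4.3.3) with TMM, 1 mean per group over all 17 libraries and a robust quasi-likelihood F test, with Benjamini-Hochberg adjustment over all genes and a threshold of 0.05. SE is the absolute log2 difference over the square root of F, and is approximate. RPKM is CPM over the summed length of annotated exons. The fit was tested on simulated data. Alternatives were DESeq2 1.42.0, limma 3.58.1 (voom with quality weights), library totals, no filter, fewer libraries, covariates and leaving out each library. Depth ran from 8875921 to 26839417 counts, which limits low genes most.

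The members and lists were chosen with earlier results of these data known. Genes named besides the members are the 2 of a list with the highest mean CPM, and the 5 most like Tra2a by Pearson r of log2 CPM (prior count 2) among genes of at least 1 CPM. Mettl23, Mfsd11, Gm25082, Neat1, Slc17a6, Srrm2, Lsm8 and Snrnp70 were named after their values or positions were seen. Promoters are from RefSeq.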

Additional observations from a re-analysis of the deposited data

Results flagged for a closer look

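Srsf3 in T5 replicate 1 stood at 127 CPM, apart from the other 3 T5 libraries at 151 to 154 CPM. The gap took up 0.879 of the range of the group, above the critical value of 0.829 for 4 samples. It was 1 of 40 groups of member values examined, and chance flags about 1 in 20 groups.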

How the results depend on the processing

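No paired analysis was possible because replicate numbers were given in accession order only and pair no samples. The number of genes called in T1 against CTRL, 0 with edgeR, was 701 with DESeq2 and 4084 with limma. On leaving out 1 library edgeR called 0 to 2203 (2203 without T1 replicate 1, 717 without T3 replicate 4). DESeq2 called 2 genes in T3 against CTRL, 12 in T5 against CTRL and 80 in T5 against T3. With edgeR, leaving out 1 library gave 0 to 1 in T5 against T3 (1 without T5 replicate 4). In T5 against T3 DESeq2 called 1 member, Srsf5. The cause of these differences between tools was not tested.

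Srsf11 joined Srsf5, Clk1 and Clk4 without overlap in T5 against CTRL with library totals (71.8 to 81.8 against 85.0 to 116 CPM). Members without overlap went from 2 to 1 in T1 against CTRL with library totals, and from 1 to 2 in T5 against T3 with library totals and without sample numbers of 28 and above, where Srsf6 joined Srsf5. Without those numbers T3 against CTRL went from 0 to 1 (Srsf6). Fewer libraries per group separate more easily, and the share of all genes without overlap was not computed in these settings. Nothing is read from these counts. These overlap counts, and the list counts without those libraries, with a term for them or with library totals, were added after seeing the data. With library totals, T1 replicate 1 over the other T1 libraries was 1.01 for Tra2a, 1.08 for Tra2b, 0.705 for Srsf2, 0.904 for Srsf3, 0.824 for Srsf6, 0.783 for Srsf7 and 0.618 for Srsf11.

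Log2 differences near 0 changed sign, all without passing the threshold. In T3 against CTRL Tra2b was at 0.02 with a term for sample numbers of 28 and above and 0.03 without those libraries (-0.22 to 0.02 on leaving out 1 library). Clk1 was at -0.21 with limma, -0.16 with the term and -0.23 without those libraries (-0.24 to 0.25), and Clk4 at -0.15, -0.09 and -0.15 (-0.16 to 0.25). In T5 against CTRL the brain marker covariate put Tra2b at 0.03, Srsf6 at 0.00 and Srsf7 at 0.04, and leaving out 1 library gave -0.01 to 0.11 for Tra2a and -0.13 to 0.03 for Srsf7. In T5 against T3 Tra2a was at 0.00 with limma and without sample numbers of 28 and above, and 0.01 with the covariate (-0.07 to 0.05), and Tra2b at 0.14 with the covariate (-0.14 to 0.10). Srsf3 was at -0.02 with limma, -0.05 with library totals, -0.01 with only the 2 groups, and -0.03 both with the term and without those libraries (-0.03 to 0.07). In T5 against CTRL Srsf5 (-0.81 to -0.60), Clk1 (-0.71 to -0.54) and Clk4 (-0.67 to -0.50) stayed negative and short of the threshold in all 25 alternatives, with lowest adjusted p-values of 0.216, 0.272 and 0.316.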

Other observations

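The 5 genes whose log2 CPM was most like that of Tra2a over the 13 libraries of sample number 26 or lower were Haus3 (Pearson r 0.922), Cgrrf1 (0.846), Wrap73 (0.827), Saysd1 (0.823) and Cdc26 (0.818). Over all 17 libraries r was 0.239 for Haus3 and between -0.078 and -0.001 for the other 4, and the high value in T1 replicate 1 is shared by all of them. Without that library r was 0.832 for Haus3 and 0.626 to 0.755 for the others. Among the members, r with Tra2a over the 13 libraries was 0.601 for Tra2b, -0.617 for Srsf2 and 0.29 for Srsf7. Without T1 replicate 1 it was 0.645, -0.38 and 0.713, and over all 17 libraries 0.171, -0.611 and 0.205. These values describe libraries that share groups, and carry no test.

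Of 6 nuclear-retained non-coding RNAs, all 6 had a negative log2 difference in T5 against T3, with a median of -0.65 and 1 at an unadjusted edgeR p under 0.05. Without sample numbers of 28 and above, 4 were positive and 2 negative, with a median of 0.41. With a term for those numbers the counts were the same and the median was 0.19. Malat1 averaged 334 ± 51.3 CPM in T5 and 551 ± 539 CPM in T3 (SD, n = 4 each), where T3 replicate 4 was at 1358 CPM. Neat1, which scaffolds paraspeckles, stood at 164 to 224 CPM in the 4 libraries of sample number 28 and above and at 15.7 to 101 CPM in the other 13. Of 20 tissue splicing regulators tested, 15 were positive in T5 against CTRL with a median of 0.24, where 54.5% of all genes were positive. At an unadjusted edgeR p under 0.05, 2 were higher and 1 lower, against 3.89% and 3.94% of all genes. All 12 neuron markers were positive in the same comparison, and the part of neurons in this list was not tested. Of 8 temperature-responsive genes, 4 were positive and 4 negative in T5 against CTRL, and the chaperone gene Hspa8 averaged 1262 ± 77.6 against 1096 ± 126 CPM (SD, n = 4 and 5).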
